A study of Zea mays with 24 samples.

Results

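Young shoots were compared with roots of the maize (Zea mays) cultivar SS in seedlings that received water and no added salt. The comparison used 3 shoot libraries and 3 root libraries of SS under water, 6 of the 24 libraries of the series, chosen by their labels for cultivar, treatment and tissue. The other libraries came from SS under a salinity solution of 100 mM and from the cultivar ST under either treatment, again with 3 libraries for each tissue, which makes 8 groups. All seedlings were treated when they had 3 leaves. The series calls the libraries biological replicates but the sources used here do not give the plants behind each, so p-values measure the spread between these libraries. RNA was sequenced as paired ends of 150 bp, and each library has 1 value per feature in FPKM, the fragments per kilobase of feature, scaled to the total of that library.

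A shoot captures light and fixes carbon with large amounts of a small number of chloroplast and enzyme transcripts, whereas a root takes up water and minerals and anchors the plant. Among the transcripts that can differ between such organs are primary transcripts of microRNA (miRNA) genes. These are cut to a hairpin and then to a short mature miRNA, which lowers the messenger RNAs it pairs with. In plants the MIR156, MIR164, MIR166 and MIR171 families act on transcription factors of development, MIR168 acts on the AGO1 protein that carries miRNAs, and MIR408 and MIR528 act on copper-binding proteins. The values below are of precursor genes, and mature miRNAs were not measured.

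The deposited FPKM values gave back whole reads for every feature above 0, so the depth of each library is known. The 3 shoot libraries held 24856688, 26995993 and 24918538 reads, and the 3 root libraries 19747198, 23952125 and 23859812. At least 1 FPKM was reached by 22041 to 22171 features in shoots, against 24238 to 24361 in roots. Pearson coefficients between replicates, across features, were 0.995 to 0.996 in shoots and 0.995 in roots. The median SD of log2(FPKM + 1) was 0.0769 in shoots and 0.0701 in roots. Replicate pairs differed by more than counting noise, with a chi-square of 3.55 to 5.07 per degree of freedom in shoots and 2.52 to 2.89 in roots. This does not exclude libraries prepared apart from the same RNA or the same plants. Gene names were paired only with miRNA genes, so marker genes were not used here to check the tissues. By whole profile, the SS shoots correlated with ST shoots under water at 0.843 to 0.848 and with ST roots at 0.552 to 0.559. The SS roots correlated with ST shoots at 0.542 to 0.545 and with ST roots at 0.849 to 0.852. Each library thus lay with the tissue of its label.

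Reads were gathered on fewer features in shoots than in roots. The 10 most abundant features took 6.41 to 6.86% of the reads of a shoot library, against 3.64 to 3.70% in a root library. The 100 most abundant took 21.4 to 22.7% in shoots and 12.4 to 12.5% in roots, and the 1000 most abundant took 47.4 to 48.9% in shoots and 36.5 to 36.6% in roots. It took 1077 to 1183 features to reach 50% of the reads in shoots, against 2121 to 2136 in roots. The 6 libraries did not overlap on any of these measures. The single most abundant feature was close in both tissues, at 0.937 to 0.979% of shoot reads and 0.868 to 0.922% of root reads. Under salinity SS shoots needed 1326 to 1422 features for 50% of reads and SS roots 2187 to 2214, and in ST under water the numbers were 791 to 828 in shoots and 2210 to 2272 in roots.

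**Figure D1:**
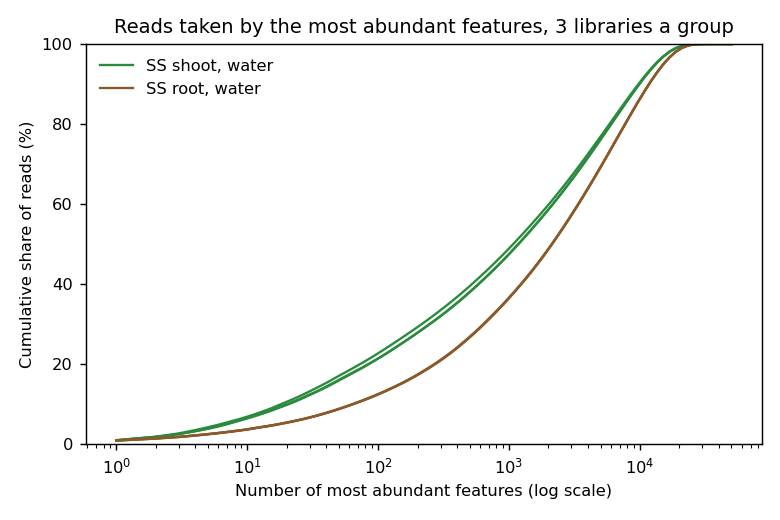
Cumulative share of reads (%) against the number of most abundant features (log scale), with 1 line for each of the 3 SS shoot and 3 SS root libraries under water. Every shoot line lies above every root line from the most abundant feature on (0.937 to 0.979% in shoots, against 0.868 to 0.922% in roots), and the lines reach 50% of reads at 1077 to 1183 features in shoots, against 2121 to 2136 in roots.

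Because FPKM divides by the library total, a larger share taken by some features leaves a smaller one for the rest. Median-of-ratios scaling, which sets the typical feature equal across libraries, gave factors of 0.865, 0.866 and 0.832 in shoots and 1.20, 1.20 and 1.20 in roots. Dividing by them shifted the shoot minus root differences by a median of 0.41 on the log2 scale. Results are therefore given as deposited and after this scaling. Neither states the amount of RNA per cell, and in bulk tissue fewer cells of a type and less RNA per cell cannot be told apart.

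Shoots and roots of SS differed at most of the features tested, and as deposited far more features were lower in shoots than higher. Of 29127 features tested with limma on log2(FPKM + 1), 23940 (82.2%) passed an adjusted p of 0.05 (Benjamini-Hochberg). Of these, 7247 were higher in shoots (24.9% of those tested) and 16693 were lower (57.3%). After scaling 23027 features passed (79.1%), with 10901 higher (37.4%) and 12126 lower (41.6%). The share of calls that were higher in shoots was 30.3% as deposited and 47.3% after scaling. The median difference over all features tested was -0.38 as deposited and -0.01 after scaling.

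The direction of 19373 features was called the same way both ways, 7247 higher and 12126 lower in shoots. Another 1265 features were called lower as deposited and higher after scaling, and none of these differed by more than 0.42 on the log2 scale as deposited. A further 3302 features were called only as deposited and 2389 only after scaling. At 2-fold or more, 3852 features were higher in shoots as deposited (13.2%) and 7929 lower (27.2%), against 5096 (17.5%) and 5501 (18.9%) after scaling. All 3852 higher features and 5501 of the lower ones held both ways. At 16-fold or more, 619 features were higher as deposited (2.13%) and 509 lower (1.75%), against 781 (2.68%) and 376 (1.29%) after scaling. The 3 libraries of one tissue lay wholly above or below those of the other for 24124 features as deposited (82.8%) and 23378 after scaling (80.3%). Features that are low in other groups lower the spread that all 8 groups share in the fit, so adjusted p-values of features near 0 in some groups may be too small. In a fit of the 6 SS water libraries alone, 25478 features were tested, and 22395 of the 22676 calls tested in both fits were made in the same direction. The other 1264 calls were of features not tested there.

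**Figure D2:**
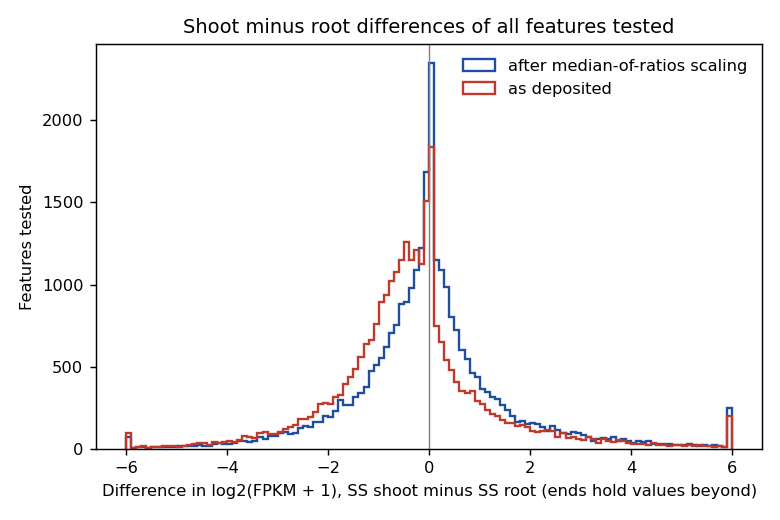
Number of features tested (vertical axis) by shoot minus root difference in log2(FPKM + 1) in SS under water (horizontal axis, bins at the ends hold values beyond them), after median-of-ratios scaling and as deposited. The deposited values centre on a median of -0.38 and the scaled values on -0.01.

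The balance between the tissues changed with the level of a feature. Among 10251 features with a mean of 5 to 20 FPKM over the 6 libraries, 24.8% were higher and 63.4% lower in shoots as deposited, and 42.3% and 42.1% after scaling. Among 1145 features of 100 to 500 FPKM, 36.1% were higher and 60.8% lower, and 43.4% and 51.3% after scaling. Among the 161 features of at least 500 FPKM, 89 were higher in shoots (55.3%) and 68 lower (42.2%), with a median difference of 0.92. In that last class 99 were higher and 57 lower after scaling. Higher calls in shoots thus outnumbered lower ones under both scalings in the most abundant class, and were outnumbered in both under 5 FPKM. Between these levels the order after scaling turned more than once, so there was no steady trend. The levels are means of the same 6 libraries, so a feature can enter a class through the tissue where it is high. The balance by class is therefore a description and carries no test.

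The 619 features that were at least 16-fold higher in shoots under both scalings took 25.4 to 27.1% of shoot reads and 0.321 to 0.323% of root reads. Their median level was 111 FPKM in shoots and 1.37 FPKM in roots, and the highest reached 11968 FPKM in shoots. The 376 features at least 16-fold lower in shoots under both scalings took 0.0652 to 0.0688% of shoot reads and 5.59 to 5.61% of root reads. Their median level was 0.253 FPKM in shoots and 61.8 FPKM in roots, with a highest root level of 2489 FPKM. The 619 thus took a larger share of shoot reads than the 376 took of root reads, but the sets differ in size. The rule of both scalings kept all 619 features higher as deposited, but only 376 of the 509 lower. Neither set was confined to 1 tissue, with up to 384 FPKM in roots among the 619 and 46.6 FPKM in shoots among the 376. These values describe features chosen by this contrast and carry no test. The 619 held 12 unnamed transcript models, which carry an identifier outside the maize gene sets, the 376 held 2, and neither set held a miRNA gene. The median feature length was 1125 bases in the first set and 971.5 bases in the second.

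Nearly all of these features had the same direction in libraries that did not choose them. Under salinity in SS, 618 of the 619 shoot features were called higher in shoots and 1 lower, where 26.3% of all features tested were called higher. All 376 root features were called lower in shoots there, against 53.7% of all features. The 619 took 21.0 to 21.8% of SS shoot reads under salinity and 0.280 to 0.299% of SS root reads. The 376 took 0.0590 to 0.0609% of SS shoot reads under salinity and 4.55 to 4.61% of SS root reads. In ST under water, 603 of the 619 were called higher in shoots and 5 lower (background 21.5% higher), and 371 of the 376 were called lower and 1 higher (background 63.6% lower). In ST the 619 took more of the shoot's reads, 31.8 to 32.5%, and 0.395 to 0.406% of the root's. The 376 took 0.133 to 0.137% of ST shoot reads and 4.50 to 4.90% of ST root reads.

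The features with the widest gap and a mean of at least 50 FPKM are known here by identifier alone, with no gene name or role. Zm00001d023343 stood at 4288, 4528 and 4594 FPKM in shoots, against 1.74, 1.63 and 2.58 FPKM in roots (log2 difference 10.56, limma adjusted p = 1.16e-23, and 10.96 after scaling). Zm00001d046170 stood at 1986, 1901 and 2168 FPKM in shoots, against 1.09, 1.02 and 1.44 FPKM in roots (log2 difference 9.86, limma adjusted p = 2.24e-25, and 10.22 after scaling). Both were at 1901 FPKM or more in each shoot library and at 2.58 FPKM or less in each root library. Zm00001d029859 stood at 0.1, 0.184 and 0.399 FPKM in shoots, against 1847, 1813 and 1782 FPKM in roots (log2 difference -10.54, limma adjusted p = 9.53e-25, and -10.23 after scaling). Zm00001d047117 was at 0, 0 and 0.309 FPKM in shoots, against 1263, 1174 and 1158 FPKM in roots (log2 difference -10.10, limma adjusted p = 1.88e-22, and -9.81 after scaling). All 4 were chosen for the widest gap, an adjusted p under 0.05 and no overlap between the tissues under both scalings. Their gaps and p-values thus follow from the choice and are no further support. Zm00001d047117 had no read in 2 of 3 shoot libraries.

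Some features gave reads in one tissue and none in the other. At least 1 FPKM in all 3 shoot libraries and 0 reads in all 3 root libraries was found for 114 features, with a median of 3.69 FPKM and a highest value of 153 FPKM in shoots. The reverse, at least 1 FPKM in all root libraries and 0 reads in all shoot libraries, was found for 398 features, with a median of 4.43 FPKM and a highest value of 781 FPKM in roots. A mean of at least 10 FPKM was reached by 25 of the 114 and by 104 of the 398. A count of 0 allows up to 3 reads over the group, which is 0.0475 FPKM in roots at the median length of the 114 (935.5 bases) and 0.0359 FPKM in shoots at that of the 398 (1089.5 bases); these limits cover counting error only. Of the 114 shoot features, 76 also had no read in SS roots under salinity and 65 none in ST roots under water, and 40 had none in any of the 9 other root libraries. Of the 398 root features, 269 had none in SS shoots under salinity, 249 none in ST shoots under water and 166 none in any of the 9 other shoot libraries. The 114 held 18 unnamed models and 1 miRNA gene, MIR156j, and the 398 held 17 unnamed models and no miRNA gene.

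Classes of identifier differed in balance. Of 26483 tested features with the prefix Zm00001d, 6525 were higher in shoots and 15898 lower, with a median log2 difference of -0.43. After scaling the counts were 10010 and 11560. Of 2346 tested unnamed transcript models, 680 were higher and 662 lower, with a median of 0, and 836 and 466 after scaling. Of 269 tested features with the prefix ENSRNA, which marks noncoding RNA genes in Ensembl, 31 were higher and 125 lower in shoots, with a median of -0.59, and 43 and 92 after scaling. These are 11.5% higher and 46.5% lower as deposited, both below the 24.9% and 57.3% over all features. ENSRNA features took 0.0156 to 0.0194% of shoot reads and 0.0483 to 0.0509% of root reads. The unnamed models were 29.0% higher and 28.2% lower as deposited. After scaling 37.4% of all features tested were higher and 41.6% lower. The 836 higher calls of the unnamed models lay near that share of higher calls, and their 466 lower calls below that of lower calls.

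**Figure D3:**
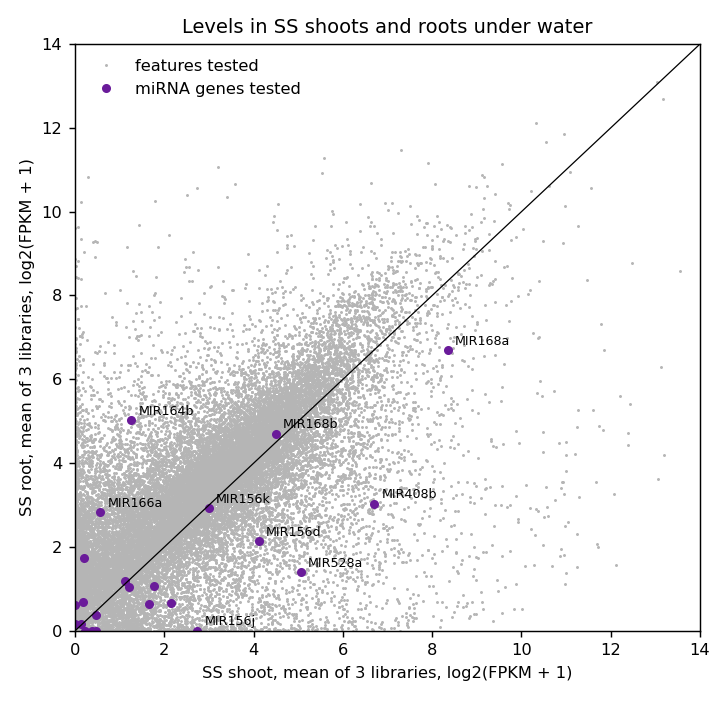
Mean log2(FPKM + 1) of 3 SS shoot libraries (horizontal axis) and 3 SS root libraries (vertical axis) under water, for 29127 features tested (grey) and 23 miRNA genes (purple, some named); the line marks equal levels. MIR408b, MIR528a, MIR156d, MIR156j and MIR168a lie on the shoot side, and MIR164b and MIR166a on the root side.

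The files hold 154 miRNA genes, of which 153 matched a reference name. Reads were found for 40 of them in the 6 libraries, 23 were tested, and the other 17 had at most 8 reads over all 6 libraries. The remaining 114 had no read there, which at this depth bounds their precursor levels and does not show absence. Of the 23 tested, 17 are shorter than a 150 bp read, so a full-length read cannot lie within them, and the source transcripts of their reads are unknown. How reads were shared between near-identical copies of a family is not given either, so values of single copies are uncertain.

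Precursors of miRNA genes took more of the reads in shoots than in roots. They held 1637, 1563 and 1469 reads in the shoot libraries, which is 0.00579 to 0.00659% of all reads, against 437, 557 and 533 reads in the root libraries, or 0.00221 to 0.00233%. MIR168a made up 55.1 to 56.0% of these reads in shoots and 46.1 to 47.8% in roots. MIR408b made up 24.4 to 25.9% in shoots and 3.75 to 5.21% in roots, and MIR164b 0.122 to 0.512% in shoots and 16.5 to 19.2% in roots. The makeup of the precursor reads thus differed beyond the spread of the libraries.

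Of the 23 miRNA genes tested, 9 were called higher in shoots, 4 lower and 10 neither, beside backgrounds of 24.9% higher and 57.3% lower over all features. After scaling 10 were higher, 4 lower and 9 neither, beside 37.4% and 41.6%. Their median log2 difference was 0.16 as deposited and 0.41 after scaling, against -0.38 and -0.01 over all features. The genes follow by what their families act on.

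**Figure D4:**
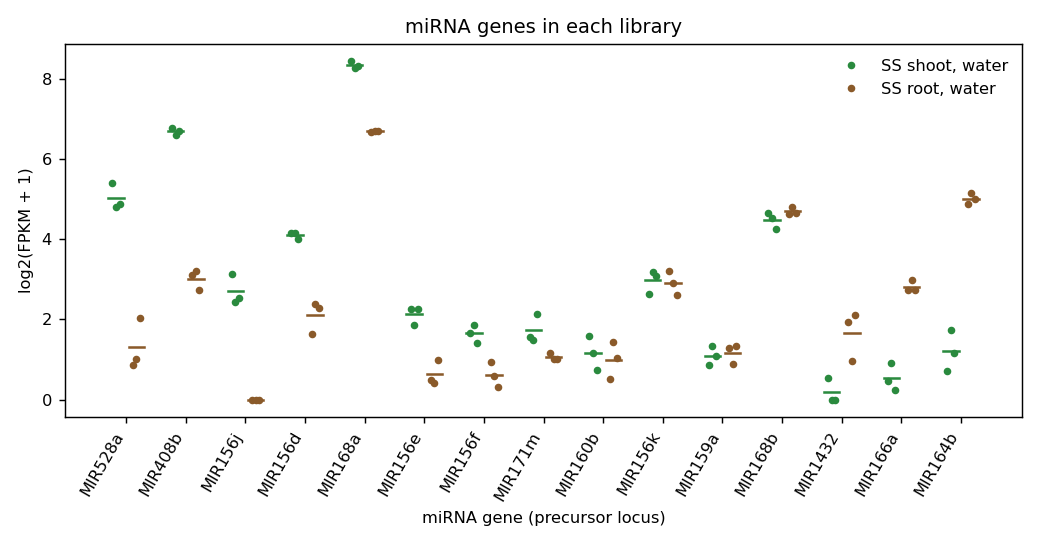
log2(FPKM + 1) of 15 miRNA genes in each SS library under water (points: 3 shoot libraries left and 3 root libraries right for each gene; bars: means). The groups lie apart for MIR528a, MIR408b, MIR156j, MIR156d, MIR168a, MIR156e, MIR156f, MIR171m, MIR1432, MIR166a and MIR164b, and overlap for MIR160b, MIR156k, MIR159a and MIR168b.

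Of 3 tested precursors of the copper-linked families MIR408 and MIR528, MIR408b and MIR528a were higher in shoots and MIR528b did not pass. In plants MIR408 and MIR528 lower the messenger RNAs of copper proteins such as plantacyanins and laccases. MIR408b stood at 109, 96.8 and 104 FPKM in shoots, against 7.58, 8.24 and 5.70 FPKM in roots. The shoots averaged 103 ± 6.25 and the roots 7.17 ± 1.32 FPKM (SD, n = 3 each), a 14.4-fold ratio, with a log2 difference of 3.69 (SE 0.29, limma adjusted p = 8.97e-11) and of 4.14 after scaling. MIR528a stood at 41.5, 26.8 and 28.7 FPKM in shoots, against 0.823, 1.02 and 3.07 FPKM in roots. Its means were 32.4 ± 8.01 and 1.64 ± 1.24 FPKM, a 19.8-fold ratio, with a log2 difference of 3.73 (SE 0.32, limma adjusted p = 3.27e-10) and of 4.10 after scaling. No library of one tissue reached those of the other for either gene. The root values rest on 71 reads of MIR408b and 14 of MIR528a. The ratio of MIR408b to MIR528a was 2.63, 3.61 and 3.62 in shoots, against 9.20, 8.09 and 1.86 in roots, and these overlap. Without root replicate 3, which was the highest of the root libraries, the ratio of MIR528a was 35.1. MIR528b had 1 read in shoots and none in roots (log2 difference 0.20, limma adjusted p = 0.379).

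MIR168 has 2 precursor copies in the table, and they behaved differently. MIR168 acts on AGO1, the protein that holds mature miRNAs, and so feeds back on the pathway. MIR168a, the most abundant miRNA gene, stood at 349, 307 and 317 FPKM in shoots, against 102, 103 and 102 FPKM in roots. It averaged 324 ± 21.9 FPKM in shoots and 102 ± 0.704 FPKM in roots, a 3.17-fold ratio (log2 difference 1.65, SE 0.10, limma adjusted p = 5.94e-13, and 2.14 after scaling). MIR168b stood at 24.4, 22.1 and 18.1 FPKM in shoots, against 23.9, 26.9 and 24.2 FPKM in roots. The tissues overlapped for MIR168b, at 21.5 ± 3.15 in shoots and 25.0 ± 1.67 FPKM in roots (log2 difference -0.21, SE 0.15, limma adjusted p = 0.2). After scaling its difference was 0.26 (limma adjusted p = 0.132), so the sign of its estimate differs between the scalings. The ratio of MIR168a to MIR168b does not, since both values come from 1 library, and it was 14.3, 13.9 and 17.5 in shoots, against 4.27, 3.84 and 4.23 in roots. Both copies are 104 bases long.

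MIR156 lowers SPL transcription factors and holds plants in the juvenile phase. As deposited, 4 of its 5 tested precursors were higher in shoots, beside 24.9% of all features tested (37.4% after scaling). MIR156d stood at 16.9, 16.8 and 15.2 FPKM in shoots, against 2.13, 4.21 and 3.87 FPKM in roots. Its log2 difference was 2.01 (SE 0.19, limma adjusted p = 2.24e-09) and 2.42 after scaling, and the ratio of means was 4.79. MIR156j stood at 7.72, 4.45 and 4.82 FPKM in shoots, with 54 reads, and had 0 reads in roots. The 3 reads that a count of 0 allows over the root libraries are 0.355 FPKM, so MIR156j was at least 15.9-fold higher in shoots (limma adjusted p = 1.31e-09). MIR156e stood at 3.83, 2.65 and 3.82 FPKM in shoots, against 0.402, 0.331 and 0.998 FPKM in roots (log2 difference 1.5, limma adjusted p = 1.75e-05). MIR156f stood at 2.17, 2.66 and 1.68 FPKM in shoots, against 0.910, 0.5 and 0.251 FPKM in roots (log2 difference 1.04, limma adjusted p = 0.0179). The tissues lay apart for these 4 genes, and the last rests on 28 reads in shoots and 6 in roots. Its call was lost without root replicate 3 (adjusted p = 0.0679) or shoot replicate 2 (adjusted p = 0.0595), and with a pseudocount of 0.1 FPKM (adjusted p = 0.0776).

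MIR156k did not follow them as deposited. It stood at 5.23, 8.13 and 7.50 FPKM in shoots, against 8.23, 6.45 and 5.11 FPKM in roots, and the tissues overlapped. Its log2 difference was 0.07 as deposited (limma adjusted p = 0.784), and after scaling it was 0.49 and passed (limma adjusted p = 0.0275). Within a library, MIR156d over MIR156k was 3.23, 2.07 and 2.02 in shoots, against 0.258, 0.653 and 0.758 in roots. The balance of these 2 copies thus lay on opposite sides of 1 in the 2 tissues.

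The MIR164 precursors pointed in opposite directions. MIR164 lowers NAC transcription factors, among them those of organ boundaries and lateral roots in Arabidopsis. MIR164b stood at 0.629, 2.32 and 1.25 FPKM in shoots, against 28.5, 34.9 and 31.1 FPKM in roots. It averaged 1.4 ± 0.853 FPKM in shoots and 31.5 ± 3.23 FPKM in roots, where it was 22.5-fold higher (log2 difference -3.82, SE 0.16, limma adjusted p = 9.92e-16, and -3.43 after scaling). As deposited it had the largest difference of the 23 miRNA genes tested, and the second most abundant one in roots after MIR168a. MIR164c stood at 0.745, 0.274 and 0.149 FPKM in shoots, with 8 reads, and had 0 reads in roots (log2 difference 0.45, limma adjusted p = 0.0002). Against the 3 reads that 0 allows it was at least 2.37-fold higher in shoots, or at least 1.29-fold without shoot replicate 1.

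MIR166, which lowers the class III HD-ZIP factors of leaf and vascular patterning, was lower in shoots at MIR166a. It stood at 0.378, 0.870 and 0.188 FPKM in shoots, against 5.71, 6.86 and 5.71 FPKM in roots. The root mean was 12.7-fold the shoot mean (log2 difference -2.28, SE 0.23, limma adjusted p = 4.55e-09, and -1.99 after scaling), on 8 reads in shoots and 88 in roots. Without shoot replicate 2 that ratio was 21.5. MIR1432 was at 0.452, 0 and 0 FPKM in shoots, against 2.84, 0.938 and 3.30 FPKM in roots (log2 difference -1.49, limma adjusted p = 3.16e-05, and -1.29 after scaling). The tissues did not overlap for either gene, and MIR1432 had 1 read in shoots and 14 in roots.

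MIR171 lowers GRAS transcription factors, and its 2 tested precursors also differed in direction, on few reads. MIR171m stood at 1.96, 1.81 and 3.43 FPKM in shoots, against 1.24, 1.02 and 1.02 FPKM in roots (log2 difference 0.67, limma adjusted p = 0.0417), on 15 and 6 reads. That call was lost without root replicate 1 (adjusted p = 0.0569), root replicate 2 (0.0863), root replicate 3 (0.0860) or shoot replicate 3 (0.194), and with a pseudocount of 0.1 FPKM (0.335), voom (0.131) or a filter of any value above 0 (0.0571). MIR171f had 0 reads in shoots, against 0, 0.269 and 1.35 FPKM in roots (log2 difference -0.53, limma adjusted p = 0.0174). Its tissues overlapped at 0, and its call was lost without root replicate 3 (adjusted p = 0.244). All 6 root reads of MIR171f came from 2 libraries, whereas MIR171m had reads in all 6 libraries.

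The other tested miRNA genes did not pass as deposited or after scaling. MIR159a, of the family that lowers GAMYB factors, averaged 1.16 ± 0.344 FPKM in shoots and 1.27 ± 0.372 in roots (log2 difference -0.08, limma adjusted p = 0.797). MIR160b, of the family that lowers auxin response factors, had 12 reads in shoots and 9 in roots (log2 difference 0.16, limma adjusted p = 0.701). The MIR169 family lowers NF-YA factors, and MIR169n and MIR169m had 3 and 1 reads in shoots and 2 and 4 reads in roots. MIR399 lowers PHO2 in phosphate supply, and MIR399j had 4 reads in shoots and none in roots, while MIR399e had 1 read in each tissue. MIR393a had no read in shoots and 1 in roots. With a pseudocount of 0.1 FPKM, MIR399j passed (limma adjusted p = 0.00166), as it did with voom (0.0338) and with quantile scaling (0.0498). Differences of the other genes were not detectable at this depth.

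Whether these tissue differences hold under salinity was asked by the interaction, the shoot minus root difference of SS under salinity minus that under water. It passed for 12004 of 29127 features (41.2%), 7134 higher (24.5%) and 4870 lower (16.7%), and after scaling for 11246 (38.6%), with 5094 higher (17.5%) and 6152 lower (21.1%). The side that most calls took thus changed with scaling, with 59.4% of calls higher as deposited and 45.3% after it. At 2-fold or more there were 701 higher (2.41%) and 1001 lower (3.44%). Of 21632 features called between tissues under both treatments, 21018 had the same direction and 614 the opposite one, 18 of them by 2-fold in each. Across features the tissue differences under both treatments, which share no library, correlated at 0.952 (Pearson) and 0.926 (Spearman), as a description.

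Among the 23 miRNA genes the interaction with salinity passed for 5 higher and 1 lower as deposited, beside 24.5% higher and 16.7% lower over all features. After scaling it passed for 3 higher and 2 lower, beside 17.5% and 21.1%. MIR156j was called lower after scaling (interaction -0.96, limma adjusted p = 0.0385) and not called as deposited (-0.84, limma adjusted p = 0.0623). Under salinity MIR168a averaged 409 ± 36.2 FPKM in shoots of SS and 78.4 ± 7.54 in its roots, so its gap was wider there than under water (interaction 0.72, limma adjusted p = 0.000266). MIR164b averaged 1.46 ± 0.345 FPKM in shoots and 19.1 ± 2.17 in roots under salinity, a narrower gap than under water (interaction 0.78, limma adjusted p = 0.00784). With a pseudocount of 0.1 FPKM the interaction was 0.92 (adjusted p = 0.0609) and with voom 0.89 (adjusted p = 0.0896), and neither passed. MIR408b averaged 45.8 ± 9.70 FPKM in shoots and 0.567 ± 0.496 in roots under salinity, both below the means under water (interaction 1.25, limma adjusted p = 0.0178 as deposited and 0.0552 after scaling). Its wider gap under salinity was therefore not called after scaling, nor with a pseudocount of 0.1 FPKM (adjusted p = 0.0927), nor without root replicate 3 (adjusted p = 0.0633) or shoot replicate 3 (0.0530) of salinity. MIR528a kept its direction under salinity, at 12.6 ± 3.79 FPKM in shoots and 0.529 ± 0.647 in roots, and the interaction did not pass (limma adjusted p = 0.374). MIR1432 averaged 0.712 ± 0.531 FPKM in shoots and 8.66 ± 1.38 in roots under salinity. On the log2(FPKM + 1) scale alone these were further apart than under water (interaction -1.04, limma adjusted p = 0.0341). With a pseudocount of 0.1 FPKM that interaction was 0.02 and did not pass. Neither did it pass with voom (-0.54, limma adjusted p = 0.661) or quantile scaling (-0.89, limma adjusted p = 0.0540). Its call was also lost without any 1 of 5 libraries: shoot replicates 1 and 2 and root replicate 3 of salinity, and shoot replicate 1 and root replicate 2 of water (adjusted p of 0.0799 to 0.118). The tissue direction of MIR168a, MIR164b, MIR408b and MIR1432 was the same under both treatments.

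**Figure D5:**
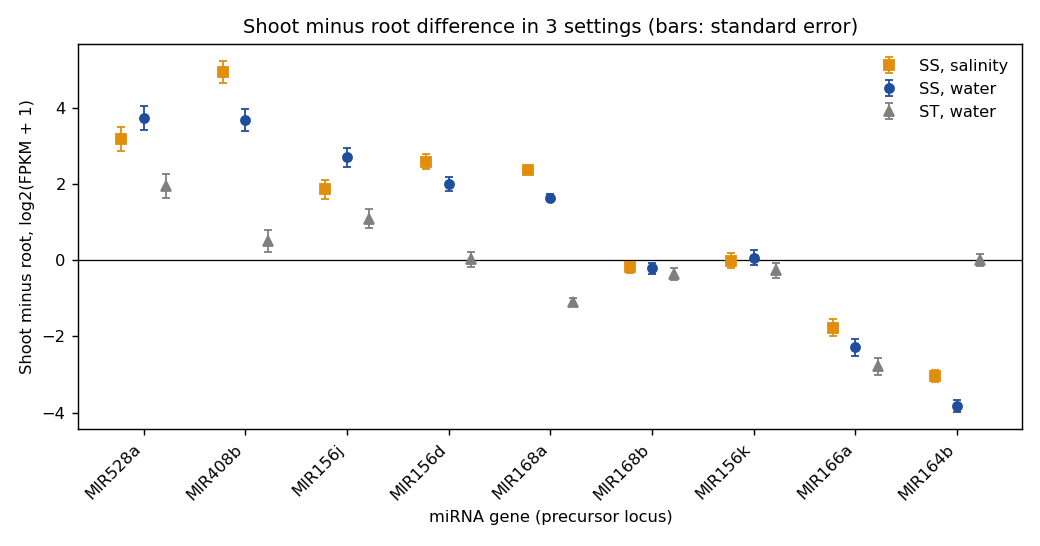
Shoot minus root difference in log2(FPKM + 1) of 9 miRNA genes in SS under salinity, SS under water and ST under water (points: limma estimates from 3 libraries a group; bars: standard errors). MIR168a lies above 0 in SS and below 0 in ST, MIR164b is at 0 in ST with no read there, and MIR166a lies below 0 in all 3.

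The tissue contrast under water also differed between the cultivars. The interaction of tissue with cultivar under water, SS minus ST, passed for 18776 features (64.5%), 11615 higher (39.9%) and 7161 lower (24.6%), and after scaling for 18473 (63.4%), with 9014 higher (30.9%) and 9459 lower (32.5%). Of the calls, 61.9% were higher as deposited and 48.8% after scaling. At 2-fold or more there were 3309 higher (11.4%) and 2377 lower (8.16%). Of 21124 features called between tissues in both cultivars, 19347 had the same direction and 1777 the opposite one. Both gaps were at least 2-fold in 120 of the 1777, of which 72 were higher in SS shoots and 48 higher in SS roots. Across features the tissue differences of SS and ST correlated at 0.848 (Pearson) and 0.773 (Spearman), again as a description of separate libraries.

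Among the 23 miRNA genes this interaction passed for 8 higher and 6 lower as deposited, beside 39.9% and 24.6% over all features. After scaling the counts were again 8 and 6, beside 30.9% and 32.5% over all features. No trait of miRNA genes as a class is read from these counts. After scaling MIR1432 was no longer called (limma adjusted p = 0.0652) and MIR393a was (limma adjusted p = 0.0399). MIR168a took opposite directions in the cultivars. In SS it averaged 324 ± 21.9 FPKM in shoots and 102 ± 0.704 in roots, against 55.6 ± 2.79 FPKM in shoots and 120 ± 21.9 in roots of ST. The ST difference was -1.09 as deposited and -0.42 after scaling, both called, and the interaction was 2.74 (SE 0.14, limma adjusted p = 2.67e-13). MIR168b did not pass (interaction 0.14, limma adjusted p = 0.571). MIR156d averaged 10.3 ± 2.10 FPKM in shoots and 10.1 ± 2.39 in roots of ST, a difference not called as deposited (0.03) and called after scaling (0.64, limma adjusted p = 0.00328). Its interaction was 1.98 (limma adjusted p = 1.56e-06). MIR164b had no read in either tissue of ST, and its interaction was -3.82 (limma adjusted p = 3.23e-12).

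The copper-linked precursors were low in ST. MIR408b averaged 1.05 ± 0.765 FPKM in ST shoots and 0.420 ± 0.384 in ST roots, on 1 to 7 and 0 to 3 reads per library (interaction 3.19, limma adjusted p = 6.95e-07). MIR528a averaged 3.85 ± 1.84 FPKM in ST shoots and 0.201 ± 0.174 in ST roots (interaction 1.77, limma adjusted p = 0.00159). With a pseudocount of 0.1 FPKM neither interaction passed (limma adjusted p = 0.0954 for MIR408b and 0.667 for MIR528a), and with voom that of MIR528a did not (0.424). MIR166a was lower in shoots in both cultivars, at 0.479 ± 0.352 FPKM in shoots and 6.09 ± 0.666 in roots of SS, against 0.183 in shoots and 7.22 in roots of ST, and its interaction did not pass (0.50, limma adjusted p = 0.179).

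Among features known by identifier alone, Zm00001d041645 had opposite tissue directions in the cultivars. In SS it averaged 0.565 ± 0.193 FPKM in shoots and 83.0 ± 2.69 in roots, against 92.5 ± 6.62 FPKM in shoots and 18.5 ± 3.49 in roots of ST (interaction -8.03). Zm00001d044526 averaged 89.5 ± 3.96 FPKM in shoots and 0.455 ± 0.067 in roots of SS, and was under 1 FPKM in both tissues of ST (interaction 6.46). Between the treatments in SS, Zm00001d042104 averaged 46.9 ± 1.54 FPKM in shoots and 171 ± 4.63 in roots under salinity, against 569 ± 17.6 in shoots and 92.7 ± 6.88 in roots under water (interaction -4.45). Its tissue direction under salinity was thus opposite to that under water.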

How the data were processed

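The authors deposited 1 table per library with FPKM values of 50202 features and 1 blank row, which was left out. TopHat2, Cufflinks and Cuffdiff, without role or version, and the build B73 RefGen v3 are named per the submitters' processing notes; read assignment and strand are not given in the sources used here. Whole reads came back for 100% of 40811 features above 0, within 0.0001 reads, and totals of the series ran from 19747198 to 28825226. These counts may be of reads or of fragments, and are called reads.

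Features with FPKM of at least 1 in at least 3 of 24 libraries were tested with limma 3.58.1 (R 4.3.3) on log2(FPKM + 1) in 1 fit of 8 groups, with variances that follow the mean and Benjamini-Hochberg adjustment at 0.05. This scale understates changes of low features. Tested on simulated data in which few features differed between tissues, the fit made more false calls than the threshold allows. These false calls were not split by level. Adjusted p-values of features near 0 in other groups may be too small. Alternatives were median-of-ratios and quantile scaling, a pseudocount of 0.1, filters of any value above 0 and of 5 FPKM, voom on recovered reads, fewer libraries, replicate blocks and leaving out each replicate. Tables were made with pandas 2.3.3 and numpy 2.4.6 in Python 3.11.15, and plots with matplotlib 3.10.9.

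A reference table of Zm-B73-REFERENCE-NAM-5.0 named 153 miRNA genes and no other feature, so 35 gene lists had 0 members and are not reported, and no coordinates are given. The rule named miRNA genes averaging 5 FPKM or more over the 6 libraries and up to 2 identifiers per direction with a mean of at least 50 FPKM (20 for interactions); the other tested miRNA genes are given so that all 23 are accounted for and were chosen after their values were seen. Comparisons, members and lists were chosen with earlier results of these data known.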

Additional observations from a re-analysis of the deposited data

Results flagged for a closer look

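These results stand out because the shoot minus root difference of SS under water differed from that in another setting by an interaction test in limma (adjusted p under 0.05). Values are differences on the log2(FPKM + 1) scale.

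For salinity minus water in SS, 12004 features passed. The interactions were 0.72 for MIR168a, 0.78 for MIR164b, 1.25 for MIR408b and -1.04 for MIR1432. Those of MIR164b and MIR1432 did not pass with a pseudocount of 0.1 FPKM or with voom. MIR171m had 1.25, on 5 to 9 reads per shoot library under salinity, and 0.83 was found for MIR164c, with no read in SS roots under either treatment. The calls of MIR408b and MIR171m were lost after scaling (limma adjusted p = 0.0552 and 0.0599) and with a pseudocount of 0.1 FPKM (0.0927 and 0.0706). That of MIR171m was also lost with quantile scaling (0.0969), and without shoot replicate 3 of salinity (0.0547) or shoot replicate 2 of water (0.0506). Zm00001d011461 had 3.29 and averaged 347 ± 4.75 FPKM in shoots and 7.36 ± 1.81 in roots under salinity, against 1125 ± 98.7 in shoots and 260 ± 16.8 in roots under water. Zm00001d016076 had 3.23, with 439 ± 31.2 in shoots and 38.8 ± 5.38 in roots under salinity, against 85.0 ± 7.64 and 72.2 ± 13 FPKM under water. Zm00001d042104 had -4.45. Zm00001d007285 had -4.21, with 7.13 ± 0.285 in shoots and 3.36 ± 0.528 in roots under salinity, against 121 ± 8.54 and 2.54 ± 0.530 FPKM under water.

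For SS minus ST under water, 18776 features passed. The interactions were 2.74 for MIR168a, 3.19 for MIR408b, 1.98 for MIR156d, 1.77 for MIR528a and -3.82 for MIR164b. With a pseudocount of 0.1 FPKM that of MIR528a was 0.55 (limma adjusted p = 0.667) and with voom 0.78 (0.424), and neither passed. Its size thus depends on the pseudocount. That of MIR408b was 2.51 with this pseudocount and did not pass (limma adjusted p = 0.0954). MIR156j had 1.61, with no root read in either cultivar, and MIR164c had 0.45, with no read in ST. Genes on few reads in SS were MIR399e at -1.49, MIR169m at -1.22, MIR171m at 0.97, MIR399j at -0.91, MIR1432 at -0.89, MIR171f at 0.73 and MIR528b at -0.70. Of these, the calls of MIR169m, MIR171m, MIR399j, MIR1432 and MIR528b were each lost in 10 to 13 alternatives, on leaving out most single libraries among them. That of MIR171f was lost without root replicate 1 (adjusted p = 0.0971) or 2 (0.0645) of SS or root replicate 1 of ST (0.0525). It was also lost with a pseudocount of 0.1 FPKM (limma adjusted p = 0.0866) or voom (0.111). Zm00001d047115 had 6.47, with no read in SS and 0.118 FPKM in shoots and 97.6 ± 8.73 in roots of ST. Zm00001d044526 had 6.46. Zm00001d041645 had -8.03. Zm00001d024980 had -6.50, with 0.206 FPKM in shoots and 0.0155 in roots of SS, against 108 ± 5.38 in shoots and 0.0149 in roots of ST.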

How the results depend on the processing

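The number of features called between tissues lay within 1.5 times 23940 under all 16 alternatives run, and both interactions' counts within 1.5 times of theirs. Calls higher in shoots were 10901 after median-of-ratios scaling, against 7247 as deposited. At 2-fold or more, the interaction with treatment gave 1223 higher features under the pseudocount of 0.1 and 1250 under voom, against 701. The lower features were 1770 and 1822, against 1001. Leaving out 1 library at a time gave 23378 to 23519 calls between tissues, 10938 to 11467 for treatment and 18001 to 18383 for cultivar.

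Of the 13 miRNA genes called between tissues, 10 kept their call in every alternative that tested them (13 to 16), and MIR156f, MIR171m and MIR171f lost it in some. Of the 10 not called, 7 never were. MIR168b was at 0.28 in the fit of 6 libraries with median-of-ratios scaling (adjusted p = 0.0181), against -0.21 as deposited, and the interaction of MIR1432 with treatment was 0.0205 under the pseudocount of 0.1; the cause was not tested.

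Same-numbered shoots and roots did not deviate together (correlations of -0.0448 to 0.0841), so the numbers were not taken as pairs. With a replicate block 23895 features were called between tissues, 11630 for treatment and 18560 for cultivar; MIR171m lost its calls between tissues (adjusted p = 0.0919), for treatment (0.0600) and for cultivar (0.102), and MIR169m that for cultivar (0.0896). Depth limits the miRNA genes with few reads, whose fold changes also depend on the pseudocount.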
